A study of Homo sapiens with 24 samples.

Results

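The genes described here make, remove and read retinoic acid, and they were followed in the human embryonic stem cell line H9 (WA09) and in the neuroectoderm made from it. The 10 genes were chosen by name from the 61551 genes of the count table: the retinaldehyde dehydrogenases ALDH1A1, ALDH1A2 and ALDH1A3, the retinal reductase DHRS3, the retinoic acid hydroxylases CYP26A1, CYP26B1 and CYP26C1, and the retinoic acid receptors RARA, RARB and RARG. The cells had 4 genotypes: unedited cells that keep the human sequence (hHAR123), cells in which both alleles of the enhancer HAR123 were deleted with CRISPR-Cas9 (HAR123-KO), and cells in which the chimpanzee (cHAR123) or the mouse (mHAR123) version took its place. RNA was sequenced from undifferentiated cells (hESCs, day 0) and after 5 days of neuroectodermal differentiation in medium with knockout serum replacement, Noggin and SB431542, which inhibit BMP and activin/nodal signaling. There were 3 libraries per genotype and stage, 24 in all. The study worked with 2 clones per genotype but the sources used here do not tie libraries to clones, so p-values measure the spread between these libraries, which may partly be technical.

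HAR123 is noncoding, so no gene count shows the deletion itself. For neuroectoderm, the tables of changed genes released with the study carry base means that fit the count columns with the names cHAR123 and mHAR123 crossed, whereas hESC and HAR123-KO columns fit their own names. Groups here follow the names of the count columns, and the neuroectoderm groups in question are called the libraries labelled cHAR123 or mHAR123. Total counts ran from 23334732 to 35198684 in hESC libraries and from 21022748 to 25978892 in neuroectoderm libraries. The summed level of 8 pluripotency markers was 4982 to 5370 CPM (counts scaled to a common library total) in hESCs and 1541 to 1766 CPM in neuroectoderm, where 8 early neuroectoderm markers summed to 574 to 1209 CPM. Summed mesoderm markers stayed between 2.21 and 4.81 CPM at both stages. The 8 endoderm markers summed to 3.91 to 7.86 CPM in hESCs and to 48.1 to 55.7 CPM in neuroectoderm, where CXCR4, a chemokine receptor, made up nearly all of the sum and the other 7 each averaged under 1 CPM.

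Retinoic acid is a diffusible derivative of vitamin A. Retinol is oxidized to retinal, which DHRS3 can turn back to retinol and which the ALDH1A enzymes oxidize irreversibly to retinoic acid. The CYP26 enzymes hydroxylate retinoic acid and thereby clear it. Retinoic acid receptors bind DNA as heterodimers with retinoid X receptors (RXRs) at direct repeats of a short element, and several genes of the pathway, among them CYP26A1, RARB and DHRS3, are known to be switched on by retinoic acid itself. In the embryo, retinoic acid patterns the posterior neural tube, while the anterior neural plate is kept low in it by CYP26 activity.

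Because CYP26A1 and RARB are the textbook examples of genes with a retinoic acid response element beside the start site, the promoters of all 10 genes were searched for such repeats. RefSeq (GRCh38.p14) gives 19 promoters for the 10 genes, of which the 250 bases before the start were read on both strands. The element was accepted in its canonical form AGGTCA and in 3 forms that differ at its first bases, namely AGTTCA, then the form that reads GGGTCA, and lastly the form that reads GGTTCA. A repeat was any 2 of these forms in the same orientation with 1, 2 or 5 bases between them. A match was found in 2 of the 19 promoters, 1 of CYP26A1 and 1 of RARB, both with a spacer of 5 bases, and 0.202% of all 35116 promoters hold a match with any spacing (0.074% with 5 bases). These 2 genes prompted the search, and the forms in their matches were among those accepted, so the 2 matches are no independent result. Of the 60 genes in the wider lists described below, 43 had promoters, and 0 of their 73 promoters held a match. They are shown with the elements in capitals, read on the plus strand, which is the coding strand of both genes. In CYP26A1 the elements lie on the opposite strand, so AGTTCA appears as TGAACT.
CYP26A1: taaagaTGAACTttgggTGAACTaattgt
RARB: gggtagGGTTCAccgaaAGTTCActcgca
The CYP26A1 stretch lies at chr10:93073797-93073825, with the repeat 90 to 74 bases before the start, inside the 5′ UTR of the 1 GENCODE transcript that spans it. The RARB stretch lies at chr3:25428204-25428232, with the repeat 53 to 37 bases before the start. Of the 11 RARB transcripts that span it, it lies in the 5′ UTR of 3 and outside any annotated UTR or coding stretch of the other 8. A match is a description of the letters and not evidence that a receptor binds there. In these data the genes with a match did not share a pattern: the RARB level was higher in neuroectoderm than in hESCs and the CYP26A1 level was lower.

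The level of each gene was compared with the others in TPM (counts per kilobase of exon, scaled to a common library total), and RARG led in hESCs of all 4 genotypes. In hHAR123 hESCs, RARG stood at 17.8 ± 0.75 TPM (SD, n = 3), RARA at 9.03 ± 0.23 TPM and DHRS3 at 8.84 ± 0.63 TPM, and the last 2 overlapped between libraries. In hESCs of the other 3 genotypes DHRS3 came next to RARG and did not overlap with RARA. CYP26A1 followed in hHAR123 at 2.91 ± 0.18 TPM, then ALDH1A3 at 1.37 ± 0.12 TPM and ALDH1A1 at 0.792 ± 0.21 TPM. CYP26C1, CYP26B1, ALDH1A2 and RARB each averaged under 0.4 TPM. In hHAR123 neuroectoderm, RARA (5.84 ± 0.45 TPM) and RARG (5.81 ± 0.20 TPM) overlapped at the top, DHRS3 (1.24 ± 0.30 TPM) and CYP26B1 (1.22 ± 0.24 TPM) overlapped next, and ALDH1A1 was last at 0.0581 ± 0.0063 TPM. In HAR123-KO neuroectoderm the same 2 receptors led, but RARG stood alone at the top with 15.4 ± 0.43 TPM against 6.70 ± 0.66 TPM for RARA. RARG was also above RARA without overlap in the libraries labelled mHAR123 (8.43 ± 0.17 against 6.33 ± 0.19 TPM). In those labelled cHAR123 it came first but overlapped with RARA.

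**Figure D1:**
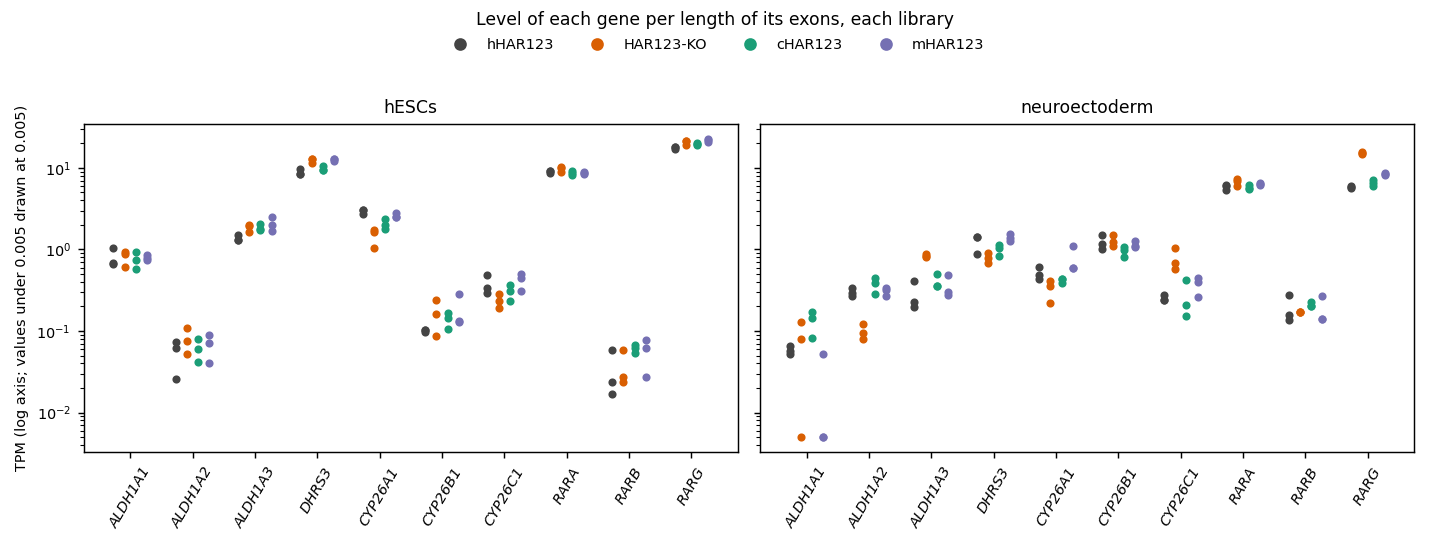
TPM (log axis) of the 10 genes in every library of hESCs (left) and neuroectoderm (right), each point 1 library, colored by genotype; 3 neuroectoderm libraries with no ALDH1A1 count are drawn at the bottom. RARG leads in hESCs of all genotypes, and HAR123-KO neuroectoderm is set apart by RARG, at 15.4 TPM on average against 5.81 TPM in hHAR123.

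Differences between groups were tested by the quasi-likelihood method of edgeR, with p-values adjusted by Benjamini-Hochberg over all genes tested, and a gene was called at an adjusted p under 0.01 with a log2 fold change beyond 1 in either direction. Differentiation came first. Of the 10 genes, 8 were called between hHAR123 neuroectoderm and hHAR123 hESCs (3 higher, 5 lower), where 45.9% of all genes tested were called (24.6% higher, 21.2% lower). In HAR123-KO 7 of 10 were called (3 higher, 4 lower), against 41.1% of all genes (22% higher, 19.1% lower). In cHAR123 the count was 8 of 10 (3 higher, 5 lower), against 42.7% (21.9% higher, 20.8% lower), and in mHAR123 also 8 of 10 (3 higher, 5 lower), against 41.9% (21.3% higher, 20.7% lower). By adjusted p alone, with no fold threshold, 10, 9, 9 and 9 of the 10 genes changed with stage in hHAR123, HAR123-KO, cHAR123 and mHAR123, where 80.1%, 79.2%, 78.9% and 78.6% of all genes did.

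Genotype differences were few in hESCs. Against hHAR123, 1 of 8 tested genes was called in HAR123-KO (CYP26A1, lower), against 1.18% of all genes (0.96% higher, 0.221% lower). By the same rule 0 of 7 were called in cHAR123 (background 0.85%) and 0 of 9 in mHAR123 (background 1.23%). At an unadjusted p under 0.05 there were 4 in cHAR123 and 5 in mHAR123, and DESeq2 also called 0 in both. The share of all genes at an unadjusted p under 0.05 was not computed for any comparison. Counts at that cutoff therefore have no background and are not read as a result about these genes. Without the fold threshold, 2 of 8, 2 of 7 and 3 of 9 genes differed in HAR123-KO, cHAR123 and mHAR123 hESCs, against backgrounds of 12.4%, 16.3% and 19.2% of all genes.

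In neuroectoderm, 4 of 9 tested genes were called in HAR123-KO (3 higher, 1 lower), against 9.45% of all genes tested (4.92% higher, 4.52% lower). The libraries labelled cHAR123 and mHAR123 each had 0 of 9 called (backgrounds 0.978% and 1.03%), and DESeq2 called 0 in both. At an unadjusted p under 0.05, for which no background was computed, they had 1 and 3 genes. By adjusted p alone, 5 of the 9 genes differed in HAR123-KO neuroectoderm (background 44.1%), 0 in the libraries labelled cHAR123 (background 9.89%) and 1 in those labelled mHAR123 (background 14%).

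Markers of some other cell types moved in the same libraries. All 8 of 8 neural crest markers (FOXD3, SOX10, PAX3, PAX7, TFAP2A, TFAP2B, SNAI2 and ETS1) were called higher in HAR123-KO than in hHAR123 neuroectoderm (background 4.92%), and their summed level was 1758 to 1769 CPM against 119 to 126 CPM. The sums were 282 to 294 CPM in the libraries labelled cHAR123 and 324 to 332 CPM in those labelled mHAR123, in each of which 7 of 8 were called higher (backgrounds in either direction of 0.978% and 1.03%). Of 8 early neuroectoderm markers, 4 were called lower in HAR123-KO (background 4.52%), and the sum of all 8 was 574 to 587 CPM against 1171 to 1194 CPM. In bulk RNA, fewer cells of a type and less RNA per cell cannot be told apart, and the part of these cell-type differences in those of the retinoic acid genes was not tested.

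**Figure D2:**
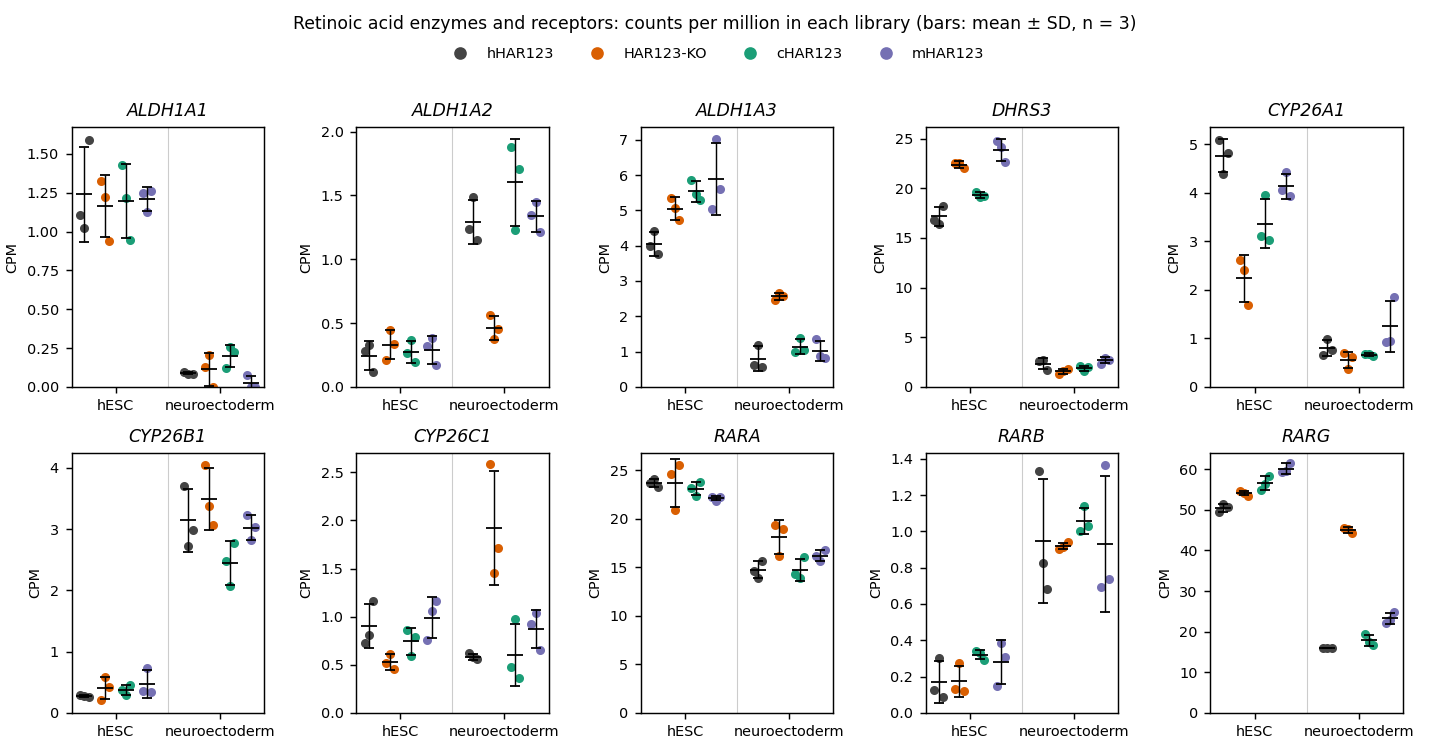
CPM of each gene in every library, by stage and genotype (points, libraries; bars, mean ± SD, n = 3). HAR123-KO neuroectoderm stands apart in RARG, ALDH1A3, CYP26C1 and ALDH1A2, and HAR123-KO hESCs in CYP26A1.

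The enzymes that make retinoic acid differed in which stage they were expressed at. ALDH1A1 (chr9:72900671-73080442, minus strand, with all gene positions as given in the count table on GRCh38) was present in hESCs and close to absent in neuroectoderm. Its counts in hESCs were 35, 34 and 56 in hHAR123, 31, 36 and 31 in HAR123-KO, 38, 33 and 29 in cHAR123, and 43, 32 and 37 in mHAR123. In neuroectoderm no library had more than 6 counts, and hHAR123 had 2 in each. The groups of the stages did not overlap in any genotype, and ALDH1A1 was called lower in neuroectoderm in all 4 (adjusted p between 6.18e-09 in cHAR123 and 1.5e-13 in mHAR123, edgeR). No fold is given because most neuroectoderm libraries are near 0 counts. Between genotypes, the hESC libraries overlapped and ALDH1A1 was too low to be tested in neuroectoderm.

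ALDH1A2 (chr15:57953424-58497866, minus strand), the main retinoic acid-synthesizing enzyme of the early embryo's mesoderm, went the other way, and its change did not pass the test in HAR123-KO. In hHAR123 it went from 0.284, 0.331 and 0.114 CPM in hESCs to 1.24, 1.49 and 1.15 CPM in neuroectoderm, a log2 fold change of 2.12 ± 0.34 (SE; adjusted p = 5.4e-07, edgeR). In HAR123-KO it went from 0.214, 0.442 and 0.333 CPM to 0.56, 0.374 and 0.45 CPM, a log2 fold change of 0.24 ± 0.40 (adjusted p = 0.567, edgeR). The HAR123-KO stages thus overlapped, while the hHAR123 stages did not. The libraries labelled cHAR123 had 1.88, 1.23 and 1.70 CPM and those labelled mHAR123 1.35, 1.45 and 1.21 CPM in neuroectoderm, all at or above the hHAR123 range's lower end of 1.15 CPM. HAR123-KO neuroectoderm was 2.70-fold below hHAR123 (log2 -1.43 ± 0.31, adjusted p = 9.97e-05, edgeR), on 13, 9 and 11 counts against 26, 36 and 27. The 8 mesoderm markers summed to 2.21 to 3.09 CPM in these 6 libraries, and 7 of them were too low to be tested.

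ALDH1A3 (chr15:100877714-100916626, plus strand) had the highest TPM of the ALDH1A genes in hHAR123 hESCs, and it fell with differentiation by a smaller step in HAR123-KO. In hHAR123 it went from 3.98, 4.43 and 3.75 CPM to 0.618, 1.20 and 0.555 CPM (log2 -2.62 ± 0.20). In HAR123-KO it went from 5.36, 5.07 and 4.73 CPM to 2.45, 2.66 and 2.57 CPM (log2 -1.17 ± 0.14). Every HAR123-KO neuroectoderm library was thus above every hHAR123 one, by 3.31-fold in the fit (log2 1.73 ± 0.24, adjusted p = 1.86e-08, edgeR). The libraries labelled cHAR123 (1.0, 1.39 and 1.03 CPM) and mHAR123 (1.35, 0.869 and 0.822 CPM) overlapped with hHAR123, and their log2 differences of 0.53 ± 0.30 and 0.39 ± 0.31 did not pass the test. In hESCs ALDH1A3 was above hHAR123 by adjusted p alone in cHAR123 (log2 0.42 ± 0.11, adjusted p = 0.00427) and mHAR123 (log2 0.49 ± 0.12, adjusted p = 0.00107), not in HAR123-KO (log2 0.29 ± 0.11, adjusted p = 0.0659, edgeR). The cHAR123 difference was lost under DESeq2 and without any 1 of 5 libraries, and the mHAR123 difference under DESeq2 and without mHAR123 replicate 2. Exons of ALDH1A3 share 33.3% of their bases with neighboring genes. These are an antisense RNA, ALDH1A3-AS1, with at most 17 counts in any library, and ENSG00000272639 on the same strand, with no count in any library. Whether counting used strand, and how reads in shared bases were assigned, is not given in the sources used here.

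DHRS3 (chr1:12567910-12618210, minus strand), which lowers the supply of retinal, fell with differentiation in all 4 genotypes. In hHAR123 it went from 16.8, 16.4 and 18.2 CPM to 2.57, 2.73 and 1.67 CPM, which is 9.06-fold lower, and in HAR123-KO from 22.6, 22.5 and 22 CPM to 1.34, 1.58 and 1.84 CPM, which is 16.1-fold lower. In hESCs it was higher than in hHAR123 by adjusted p alone in HAR123-KO (log2 0.36 ± 0.06, adjusted p = 8.57e-06) and in mHAR123 (log2 0.43 ± 0.06, adjusted p = 9.73e-08, edgeR), and no library of these 2 groups overlapped with hHAR123. The cHAR123 libraries, at 19.6, 19.1 and 19.2 CPM, also lay above the hHAR123 ones, with a log2 difference of 0.14 ± 0.06 that did not pass (adjusted p = 0.086, edgeR). In neuroectoderm the HAR123-KO level was on the other side of hHAR123, at log2 -0.49 ± 0.21, with overlapping libraries and an adjusted p of 0.043 (edgeR).

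The 3 enzymes that break retinoic acid down each followed their own course. CYP26A1 (chr10:93073475-93077885, plus strand), the one best known as a direct target of retinoic acid, was the only gene of the 10 called between genotypes in hESCs. Its hESC levels were 5.08, 4.40 and 4.83 CPM in hHAR123, 2.61, 2.41 and 1.70 CPM in HAR123-KO, 3.12, 3.95 and 3.03 CPM in cHAR123, and 4.06, 4.42 and 3.93 CPM in mHAR123. HAR123-KO was the lowest group with no overlap with any other, and cHAR123 lay between it and hHAR123, also without overlap. The HAR123-KO level was 2.19-fold below hHAR123 (log2 -1.13 ± 0.14, adjusted p = 2.62e-08), and without HAR123-KO replicate 3 the difference was -0.96, short of the fold threshold. The cHAR123 level was 1.45-fold below (log2 -0.54 ± 0.12, adjusted p = 0.00118, edgeR), which passed by adjusted p alone, but not under DESeq2 or without cHAR123 replicate 3. The mHAR123 difference of -0.25 ± 0.11 did not pass (adjusted p = 0.0985, edgeR).

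Differentiation lowered CYP26A1 in every genotype, by 7.12-fold in hHAR123, 4.51-fold in HAR123-KO, 5.81-fold in cHAR123 and 3.77-fold in mHAR123. The order of the last 2 depends on the crossed names, since exchanging the neuroectoderm names of cHAR123 and mHAR123 gave log2 changes of -1.61 and -2.84 in place of -2.54 and -1.91. In neuroectoderm the counts were 14, 24 and 18 in hHAR123, 16, 9 and 15 in HAR123-KO, 17, 16 and 14 in the libraries labelled cHAR123, and 24, 23 and 43 in those labelled mHAR123. At these counts the HAR123-KO difference from hHAR123 seen in hESCs was not detectable (log2 -0.49 ± 0.34, adjusted p = 0.225, edgeR), and the HAR123-KO and hHAR123 libraries overlapped. The test of the difference between stages of the HAR123-KO effect gave 0.63 ± 0.36 (adjusted p = 0.162, edgeR), so the effects at the 2 stages were not shown to differ.

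CYP26C1 (chr10:93060798-93069540, plus strand) was called higher in neuroectoderm than in hESCs in HAR123-KO, and its value in hHAR123 was on the other side of 0. Its counts in hESCs were 23, 27 and 41 in hHAR123 and 12, 18 and 15 in HAR123-KO. In neuroectoderm they were 13, 14 and 13 in hHAR123, 60, 35 and 42 in HAR123-KO, 12, 23 and 8 in the libraries labelled cHAR123, and 24, 25 and 15 in those labelled mHAR123. HAR123-KO neuroectoderm did not overlap with any other neuroectoderm group and was 3.38-fold above hHAR123 (log2 1.76 ± 0.28, adjusted p = 3.34e-07, edgeR). The change with stage was log2 1.66 ± 0.27 in HAR123-KO and -0.92 ± 0.30 in hHAR123 (adjusted p = 0.00474, edgeR), the latter just short of the fold threshold. The hHAR123 value would be called without hESC replicate 1 (-1.06) or 2 (-1.01), and it missed the adjusted p under DESeq2 and without any of the other 4 libraries. CYP26C1 and CYP26A1 are neighbors on chromosome 10, and both share exon bases with 1 further gene model on the same strand. The share is 18.9% of the CYP26C1 bases and 25.3% of the CYP26A1 bases. That model had no count in any library. How reads in shared bases were assigned is not given in the sources used here, so both levels may be understated.

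CYP26B1 (chr2:72129238-72147862, minus strand) rose with differentiation in all 4 genotypes. In hESCs its counts were 9, 9 and 9 in hHAR123 and reached at most 21 in any library, and in neuroectoderm they were 78, 66 and 70 in hHAR123, 94, 81 and 75 in HAR123-KO, 62, 49 and 62 in the libraries labelled cHAR123, and 84, 68 and 70 in those labelled mHAR123. The stages did not overlap in any genotype, and the log2 change in hHAR123 was 3.22. Neuroectoderm levels overlapped between hHAR123 and each of the other genotypes, and the HAR123-KO difference of 0.21 ± 0.16 did not pass the test (adjusted p = 0.27, edgeR). Per length, the leading enzyme of the family in hHAR123 was thus CYP26A1 in hESCs (2.91 TPM, against 0.374 TPM for CYP26C1 and 0.101 TPM for CYP26B1) and CYP26B1 in neuroectoderm (1.22 TPM, against 0.51 TPM for CYP26A1 and 0.251 TPM for CYP26C1).

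**Figure D3:**
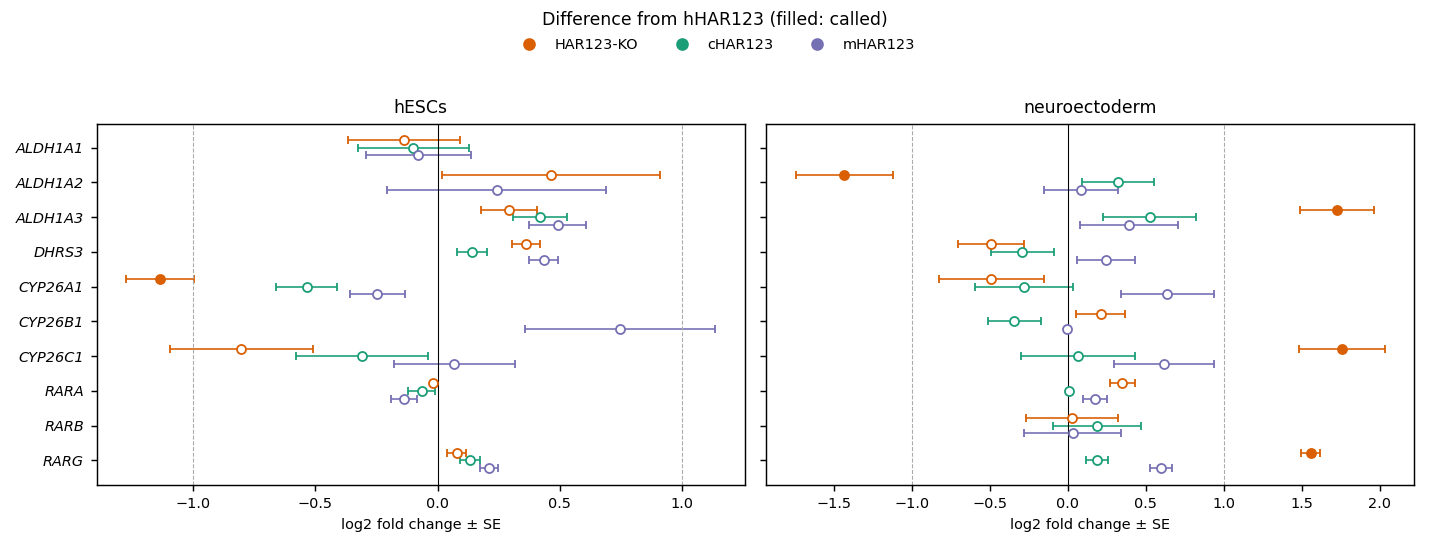
Log2 fold change against hHAR123 (± SE, 3 libraries per group) of each gene in hESCs (left) and neuroectoderm (right), with dashed lines at the fold threshold and filled points for called genes; genes too low to be tested are not drawn, and no SE is drawn for 3 values within 0.02 of 0. CYP26A1 is called in HAR123-KO hESCs (-1.13), and ALDH1A2 (-1.43), RARG (1.56), ALDH1A3 (1.73) and CYP26C1 (1.76) in HAR123-KO neuroectoderm.

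Among the receptors, RARG (chr12:53210567-53232980, minus strand) differed most between genotypes. In hESCs it was at 49.4, 51.3 and 50.8 CPM in hHAR123, 54.6, 54.2 and 53.5 CPM in HAR123-KO, 54.9, 56.3 and 58.4 CPM in cHAR123, and 59.3, 59.5 and 61.7 CPM in mHAR123. No pair of these groups overlapped, but the differences from hHAR123 were small: the largest was a log2 of 0.21 ± 0.04 in mHAR123 (adjusted p = 2.61e-05), and HAR123-KO, at 0.08 ± 0.04, did not pass (adjusted p = 0.165, edgeR). In neuroectoderm it was at 15.9, 15.9 and 15.8 CPM in hHAR123, 45.6, 45.2 and 44.3 CPM in HAR123-KO, 19.3, 17.5 and 16.8 CPM in the libraries labelled cHAR123, and 22.2, 23.0 and 24.8 CPM in those labelled mHAR123. No pair of these 4 groups overlapped. HAR123-KO was 2.94-fold above hHAR123 (log2 1.56 ± 0.06, adjusted p = 1.78e-28), and the libraries labelled mHAR123 were 1.51-fold above it, past the adjusted p alone (log2 0.60 ± 0.07, adjusted p = 1.89e-08, edgeR). For the libraries labelled cHAR123 the difference of 0.19 ± 0.07 did not pass (adjusted p = 0.0717, edgeR). From hESCs to neuroectoderm RARG fell by 3.90-fold in hHAR123 and 1.38-fold in HAR123-KO, and it was also called lower in cHAR123 and mHAR123.

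RARA (chr17:40309180-40357643, plus strand), the broadly expressed receptor, was called in none of the comparisons. It fell with differentiation in all 4 genotypes by adjusted p alone, from 23.6, 24.1 and 23.3 CPM to 14.7, 13.9 and 15.7 CPM in hHAR123 and from 24.6, 20.9 and 25.5 CPM to 19.3, 16.1 and 19.0 CPM in HAR123-KO. The log2 changes were -0.97 ± 0.07 and -0.58 ± 0.07, and the first passes the fold threshold under DESeq2 (-1.03). In neuroectoderm RARA was 1.27-fold higher in HAR123-KO than in hHAR123 (log2 0.35 ± 0.08, adjusted p = 0.000129, edgeR), with no overlap. In hESCs no genotype differed past an adjusted p of 0.01. Antisense and other overlapping genes share 21.4% of the RARA exon bases and had at most 19 counts each.

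RARB (chr3:24687887-25597932, plus strand), usually the most retinoic acid-responsive of the 3 receptors, was low throughout. Its counts in hESCs were 4, 10 and 3 in hHAR123 and at most 11 in any library. In neuroectoderm they were 28, 20 and 16 in hHAR123, 21, 22 and 23 in HAR123-KO, 25, 27 and 23 in the libraries labelled cHAR123, and 18, 33 and 17 in those labelled mHAR123. The stages did not overlap in any genotype, with a log2 change of 2.14 ± 0.41 in hHAR123 and 2.17 ± 0.39 in HAR123-KO. Neuroectoderm levels overlapped between hHAR123 and each of the other genotypes, and the HAR123-KO difference from hHAR123 was 0.03 ± 0.29 (adjusted p = 0.947, edgeR).

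An interaction term fitted on 12 libraries compared the HAR123-KO effect of neuroectoderm with that of hESCs. Of the 10 genes, 4 were called, against 7.87% of all genes tested (3.84% higher, 4.03% lower): ALDH1A3 (log2 1.43 ± 0.26), CYP26C1 (2.55 ± 0.41) and RARG (1.47 ± 0.07) with a higher effect in neuroectoderm, and ALDH1A2 (-1.90 ± 0.56) with a lower one. For ALDH1A2 the adjusted p of 0.00458 (edgeR) rests on low counts: it rose to 0.0278 under DESeq2 and past 0.01 without any 1 of 5 libraries (-1.54 at the smallest in size, without hHAR123 hESC replicate 3). By adjusted p alone (background 32.5%), RARA (0.36 ± 0.10, adjusted p = 0.00334) and DHRS3 (-0.86 ± 0.20, adjusted p = 0.000368, edgeR) were added, the latter with a HAR123-KO value above 0 in hESCs and below 0 in neuroectoderm. The RARA difference was lost under DESeq2 and without any 1 of 4 libraries. The DHRS3 difference reached -1.05, past the fold threshold, with 1 library left out. The corresponding tests for cHAR123 and mHAR123 called 0 of 10 genes each (backgrounds 0.797% and 0.967%), and DESeq2 called 0. At an unadjusted p under 0.05, for which no background was computed, there were 1 and 3 genes. Without the fold threshold there were 0 in cHAR123 (background 8.71%) and 2 in mHAR123 (background 12.8%), RARA (0.33 ± 0.09) and RARG (0.41 ± 0.08, adjusted p = 5.15e-05, edgeR). The RARA value missed the adjusted p with all 24 libraries in 1 fit, with the neuroectoderm names exchanged and without any 1 of 7 libraries. The RARG value depends on the crossed names: with the neuroectoderm names of cHAR123 and mHAR123 exchanged, RARG had -0.01 in mHAR123 and 0.48 in cHAR123, and CYP26A1 was called in cHAR123 (1.19 ± 0.31).

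**Figure D4:**
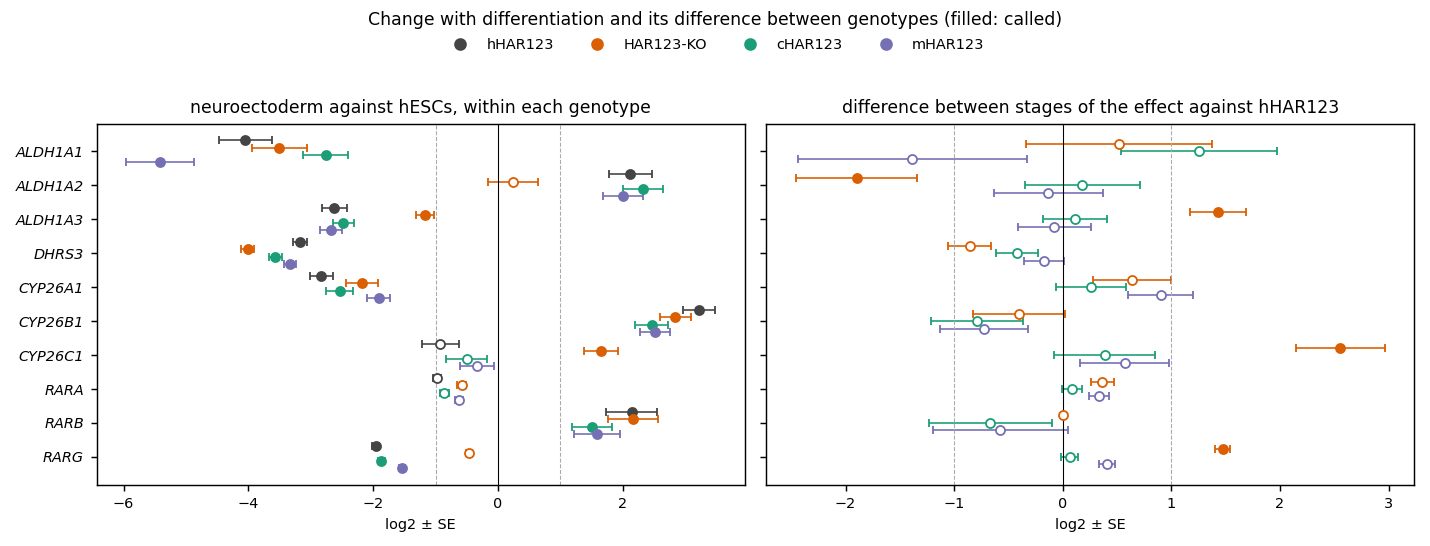
Left, log2 change from hESCs to neuroectoderm (± SE) within each genotype; right, difference between stages of each genotype's effect against hHAR123 (± SE). Filled points are called; no SE is drawn for 1 value within 0.02 of 0. ALDH1A2, ALDH1A3, CYP26C1 and RARG depart from the other genotypes in HAR123-KO, with differences of -1.90, 1.43, 2.55 and 1.47.

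The chimpanzee and mouse sequences were also compared with the deletion in neuroectoderm, with the same HAR123-KO libraries in both comparisons. Of 9 genes tested, 4 were called between the libraries labelled cHAR123 and HAR123-KO (1 higher, 3 lower), against 7.61% of all genes (3.7% higher, 3.91% lower). Between those labelled mHAR123 and HAR123-KO, 4 were called too (2 higher, 2 lower), against 7.33% (3.55% higher, 3.78% lower). Without the fold threshold the count was 6 of 9 in both, with backgrounds of 39% and 36.5%. ALDH1A2 was higher than in HAR123-KO by a log2 of 1.78 ± 0.29 and 1.54 ± 0.30, respectively. ALDH1A3 was lower, by -1.18 ± 0.21 and -1.31 ± 0.21. CYP26C1 was lower as well, by -1.66 ± 0.28 and -1.11 ± 0.25, and RARG by -1.34 ± 0.06 and -0.94 ± 0.05, the last of which passed by adjusted p alone. CYP26A1 was called higher in the libraries labelled mHAR123 (1.15 ± 0.32, adjusted p = 0.00254, edgeR), but DESeq2 gave an adjusted p of 0.0437, the difference was 0.76 without mHAR123 replicate 3, which had 43 counts, and 0.93 without HAR123-KO replicate 2. CYP26C1 in the same comparison was not called by DESeq2 (adjusted p = 0.0109) or without HAR123-KO replicate 1 (-0.85) or mHAR123 replicate 3 (-0.95). Between the libraries labelled mHAR123 and cHAR123, 0 of 9 genes were called (background 0.261%), and DESeq2 called 0. At an unadjusted p under 0.05, for which no background was computed, there were 5. RARG alone passed by adjusted p (background 4.2%, log2 0.41 ± 0.07, adjusted p = 1.77e-05, edgeR).

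The genes around these 10 were taken from 4 lists of the wider pathway. Of the 11 genes for retinoid uptake, storage and binding, 7 could be tested in neuroectoderm, and 3 were called higher and 1 lower in HAR123-KO than in hHAR123, where 4.92% of all genes were higher and 4.52% lower (median log2 over the 7 of 0.94, 0.00 over all genes). STRA6, the membrane receptor that takes up retinol, stood at 5.18, 5.58 and 4.44 CPM in hHAR123, 53.2, 51.8 and 53.0 CPM in HAR123-KO, 7.32, 6.93 and 8.47 CPM in the libraries labelled cHAR123, and 8.39, 7.78 and 7.83 CPM in those labelled mHAR123. HAR123-KO was thus 10.8-fold above hHAR123 (log2 3.43 ± 0.07, adjusted p = 3.4e-39, edgeR), with no overlap. CRABP2, which carries retinoic acid to its nuclear receptors, was at 50.4, 50.6 and 49.7 CPM in hHAR123 and at 439, 436 and 427 CPM in HAR123-KO, 8.96-fold higher (log2 3.16 ± 0.04, adjusted p = 7.59e-52, edgeR). BCO1, which cleaves beta-carotene into retinal, was 3.18-fold lower, at 10.0, 10.4 and 11.6 CPM against 34.1, 36.7 and 34.8 CPM.

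None of the 7 genes differed past the call rule in the libraries labelled cHAR123 or mHAR123, where by adjusted p alone 4 of the 7 genes were higher than in hHAR123 in each (STRA6, CRABP1, CRABP2 and BCO1), with backgrounds in either direction of 9.89% and 14%. The CRABP2 log2 differences were 0.66 and 0.88. In hESCs, STRA6 ranged from 9.39 to 12.3 CPM over all genotypes, with HAR123-KO lower than hHAR123 by adjusted p alone (log2 -0.28), and CRABP2 from 22.8 to 26.1 CPM with no difference past the test. The HAR123-KO effect differed between the stages for both, by 3.71 ± 0.11 for STRA6 and 3.23 ± 0.06 for CRABP2 (edgeR).

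Of the 15 retinol and retinal oxidoreductases, 9 could be tested in neuroectoderm, and 0 were called in HAR123-KO by edgeR, with 5 at an unadjusted p under 0.05. RDH10, the main retinol dehydrogenase of the embryo, was at 5.90, 5.29 and 5.59 CPM in hHAR123 and 6.20, 5.24 and 4.58 CPM in HAR123-KO, which overlapped. In hESCs 1 of the 10 tested was called higher in HAR123-KO and in cHAR123 (backgrounds in either direction of 1.18% and 0.85%). This was ALDH8A1, an aldehyde dehydrogenase once described as acting on 9-cis-retinal, with counts of 6, 4 and 11 in hHAR123, 16, 17 and 16 in HAR123-KO, and 15, 19 and 14 in cHAR123 (log2 1.42 ± 0.40 and 1.40 ± 0.40). The mHAR123 counts of 17, 15 and 13 did not pass (log2 1.16 ± 0.40, adjusted p = 0.023, edgeR). The ALDH8A1 calls rest on low counts and were not checked under the alternatives, which were read for the 10 genes only. Of the other 3 lists, edgeR called no gene in hESCs of any genotype, and at an unadjusted p under 0.05 HAR123-KO had 4 of 7 genes of uptake and binding, 4 of 11 receptor partners and cofactors and 1 of 5 responding genes. In the same order the counts were 3, 8 and 0 in cHAR123 hESCs and 2, 8 and 2 in mHAR123 hESCs. The share of all genes at this unadjusted p was not computed, so these counts cannot be set against a background. By an adjusted p under 0.01 alone, 12.4%, 16.3% and 19.2% of all genes differed in HAR123-KO, cHAR123 and mHAR123 hESCs.

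Of the 12 RXRs and receptor cofactors, all could be tested in neuroectoderm, and 2 were called higher in HAR123-KO (background 4.92%). RXRG had 3 counts in each hHAR123 library and 43, 64 and 68 in HAR123-KO, with 5 to 10 in the libraries labelled cHAR123 or mHAR123. NRIP1, a ligand-dependent corepressor, had 2363, 2467 and 2479 counts in hHAR123 and 4841, 5358 and 5157 in HAR123-KO (log2 1.06 ± 0.04, adjusted p = 1.61e-30, edgeR). RXRA was past the adjusted p alone (log2 0.46).

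Of 22 genes known to respond to retinoic acid, 9 could be tested in neuroectoderm, with 3 called higher in HAR123-KO (background 4.92%). MEIS2, a homeobox factor, went from 8.32, 9.46 and 10.0 CPM in hHAR123 to 40.2, 42.9 and 39.0 CPM in HAR123-KO (log2 2.18 ± 0.07), NR2F1, an orphan nuclear receptor, from 85.5, 84.3 and 82.4 CPM to 265, 266 and 268 CPM (1.72 ± 0.03), and TGM2, a transglutaminase, from 0.476, 0.703 and 0.811 CPM to 3.27, 3.16 and 2.74 CPM (2.23 ± 0.23). TGM2 was also called in the libraries labelled mHAR123 (log2 1.26 ± 0.27, adjusted p = 0.000572, edgeR). The 9 HOX genes of the list, which retinoic acid switches on in posterior neural tissue, had at most 5 counts in any of the 24 libraries and could not be tested. Among the enzymes and receptors, RARB, CYP26A1 and DHRS3 are known targets as well. Between HAR123-KO and hHAR123 neuroectoderm they were at adjusted p of 0.947, 0.225 and 0.043 (edgeR), with none higher in HAR123-KO past the test. The uptake and binding list was not sorted by response to retinoic acid, and its STRA6 and CRABP2 were called higher in the same comparison.

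**Figure D5:**
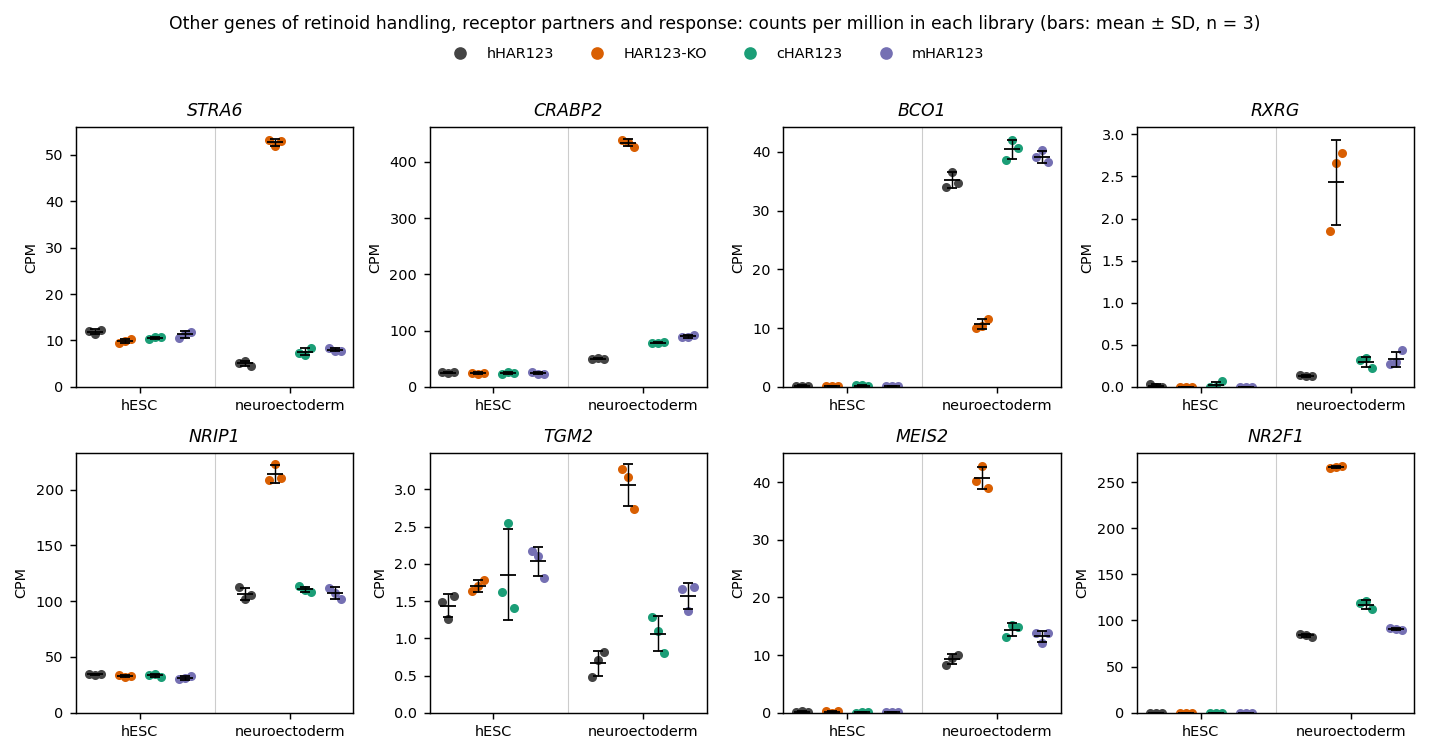
CPM in every library of 8 genes of the wider pathway that were called between HAR123-KO and hHAR123 neuroectoderm (points, libraries; bars, mean ± SD, n = 3). STRA6 (52.7 against 5.07 CPM) and CRABP2 (434 against 50.2 CPM) have the widest gaps of the retinoid carriers, and BCO1 is lower in HAR123-KO.

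Finally, the genes closest in pattern were found for the 3 members called in most of the 13 pairwise comparisons, by Pearson correlation of log2 CPM over the 24 libraries among 17513 genes. They were PPFIBP2, ITPR1 and ADCY9 for ALDH1A3 (r = 0.9815, 0.9808 and 0.9783), PLCXD1, LRRC20 and DPEP1 for CYP26A1 (0.9714, 0.9712 and 0.9659), and SMTNL1, a gene known only as ENSG00000266709 and CDH24 for ALDH1A2 (0.9505, 0.9424 and 0.9389). The 24 libraries fall into 2 stages, so these values mostly describe a shared difference between hESCs and neuroectoderm.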

How the data were processed

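Directional libraries were made after rRNA depletion, and the authors aligned the reads to GRCh38 with STAR 2.5.2b and counted them per Ensembl gene with featureCounts, and the deposited values are raw counts without normalization. Whether counting used strand is not given in the sources used here. The entry of ANK2, broken over 3 lines, was left out. Libraries were grouped by their labels. Each pair of groups was fitted alone in R 4.3.3 with edgeR 4.0.16 (filterByExpr, TMM, quasi-likelihood F test, Benjamini-Hochberg adjustment over all genes tested), and each SE is the log2 value divided by the root of F. Steps were tested on simulated data. Preparation used Python 3.11.15. Gene positions came from the count table, and the transcripts at the promoter matches from GENCODE. Replicates differed by more than sampling noise (chi-square per degree of freedom 1.4 to 4.97). A count of 0 allows up to 3 counts, which covers counting error only. The 10 genes and all lists were chosen with earlier results of these data known. All 10 were described, and of each list at most 4 called genes with the largest changes were named per comparison. Nearest patterns were sought among genes with a mean of at least 1 CPM (log2, prior count 2). CRABP1, RXRA, RDH10 and the genes named for not being called were chosen after their values were seen. Alternatives were DESeq2 1.42.0, DESeq2 size factors, no filter, all libraries of a stage or all 24, a replicate block, an adjusted p of 0.05, FPKM, leaving out each library and, added after seeing the data, exchanged neuroectoderm labels. They were read for the 10 genes and not for genes of the lists. Some genes of the lists are not reported here by name.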

Additional observations from a re-analysis of the deposited data

Results flagged for a closer look

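For 4 genes the effect of deleting HAR123 differed between hESCs and neuroectoderm by the test of the interaction itself (edgeR, 12 libraries, 3 per group). ALDH1A2 was not lower in HAR123-KO hESCs (log2 0.46 ± 0.45) and was lower in neuroectoderm (-1.43), a difference of -1.90 that missed the adjusted p under DESeq2 (0.0278) and without any 1 of 5 libraries. ALDH1A3 differed by 1.43 between the stages, with 0.29 in hESCs and 1.73 in neuroectoderm. CYP26C1 differed by 2.55, its HAR123-KO value being -0.80 in hESCs (adjusted p = 0.0479, edgeR, not called) and 1.76 in neuroectoderm. RARG differed by 1.47, with 0.08 in hESCs and 1.56 in neuroectoderm, where all 3 HAR123-KO libraries exceeded all 9 others.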

How the results depend on the processing

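Of 148 tested values of the 10 genes, 48 were called, and 43 of these kept their direction and their call under every alternative and with each library left out. The other 5 were lost under at least 1 (CYP26A1 in HAR123-KO hESCs, CYP26A1 and CYP26C1 in mHAR123 against HAR123-KO, RARB with stage in mHAR123, ALDH1A2 in the HAR123-KO interaction), none reversed, and the cause was not tested. Of the uncalled values, 5 were called under at least 1 alternative, exchanged names included, or with a library left out. DHRS3 in the HAR123-KO interaction was among them (-1.05 with 1 library left out). Leaving aside exchanged names, a sign change occurred for 21 uncalled values, all with an adjusted p of 0.653 or more. Exchanged names turned the sign of 10 uncalled values: CYP26C1 with stage in cHAR123, ALDH1A1, ALDH1A2 and ALDH1A3 in both interactions, DHRS3 in that of cHAR123 (-0.42 to 0.12), and CYP26A1 (0.90 to -0.02) and RARG (0.41 to -0.01, the first past adjusted p alone) in that of mHAR123. Under DESeq2 the genes called between mHAR123 and HAR123-KO neuroectoderm fell from 4 to 2, or from 6 to 3 by adjusted p alone, and those past adjusted p alone in cHAR123 hESCs from 2 to 0. With all 24 libraries in 1 fit, the mHAR123 interaction had 1 gene past adjusted p alone in place of 2. With the neuroectoderm names of cHAR123 and mHAR123 exchanged, the cHAR123 interaction called 1 gene and had 2 past adjusted p alone, and the mHAR123 interaction had 1. With 1 library left out, the counts called were 0 to 1 for HAR123-KO hESCs, 2 to 4 for mHAR123 against HAR123-KO neuroectoderm and 0 to 1 for the mHAR123 interaction. For the HAR123-KO interaction they were 3 to 5, and for stage in hHAR123 8 to 9. By adjusted p alone they were 0 to 2 for cHAR123 hESCs and 1 to 3 for the mHAR123 interaction. Replicate numbers did not pair the libraries (correlations of deviations from -0.0241 to 0.0421), and the fit with the replicate block called the same number in every comparison, for example 4 for HAR123-KO neuroectoderm. The order of levels was the same by TPM and FPKM in all 8 groups, but both scale the same counts by exon length. Within a library their order is fixed in advance, so this is no check of the processing. Depth limits ALDH1A1 in neuroectoderm and ALDH1A2, CYP26B1 and RARB in hESCs, which had at most 21 counts per library.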
